A study of Rattus norvegicus with 30 samples.

Results

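Of the 32545 genes listed, 150 stood near healthy nerve in the group means at day 7 after repair and above it in all 4 group means at days 14 and 21. They were chosen by level alone. For each gene the mean of log2(CPM + 1) was taken in each group, where CPM is the gene's count over the library's total count, times 1000000, and the mean in control nerve was subtracted. A gene was kept if this difference lay between -0.5 and 0.5 in both day 7 groups and was at least 0.75 in the 4 later groups. 1 gene was left out by the rule itself. 203 genes passed, and the 150 with the largest value of their smallest later difference, ranked by that value, are the members described here. The differences from control, and those between day 7 and later days, therefore made the choice and are given as a description with no test. The members just inside the limit, at ranks 148, 149 and 150, had a smallest later difference of 0.9114, 0.9086 and 0.9079. The genes just outside it, at ranks 151, 152 and 153, had 0.905, 0.9042 and 0.8999.

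The samples came from the median nerve, a nerve of the forelimb, of adult female wild-type rats. In the repaired animals the nerve was cut to an 8 mm gap that a 10 mm tube of chitosan bridged, and the tissue grown inside the tube was sequenced. The tube was placed 3 months after the cut (delayed repair; 5, 4 and 3 samples at days 7, 14 and 21 after repair) or at the time of the cut (immediate repair; 4, 4 and 5 samples). Control nerve was untreated and healthy (5 samples). Every repaired group shares the cut and the tube, and at a given day the delayed samples are 3 months further from the injury. The strain is not given in the sources used here, nor is whether each sample is 1 animal, so p-values measure the spread between these samples, which may be technical. The 30 libraries held 11958242 to 17334752 counts.

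After a gap in a nerve is bridged by a tube, the tube first fills with a fluid and fibrin matrix that inflammatory and connective tissue cells enter. Schwann cells, the glia of peripheral nerve, and blood vessels follow, and axons grow in along them. In bulk samples of such tissue, a change in how many cells of a type are present and a change in RNA per cell cannot be told apart. The files give Ensembl gene IDs, and 0 of the 32545 IDs matched the symbol table used here, so members are called by rank, with 4 of them by ID. Their functions, the cell types that carry them and the markers of nerve tissue were not analysed here.

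Few of the genes that stood high later were near control at day 7. In total, 2585 genes stood at least 0.75 above control in all 4 later groups. Of these, 2058 (79.6%) were already more than 0.5 above control in both day 7 groups, 203 (7.85%) lay within 0.5 in both, and 159 (6.15%) lay more than 0.5 below in both. The other 165 were divided between classes at day 7.

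The member of rank 1, ENSRNOG00000029401, had the largest smallest difference, 4.50 on the log2(CPM + 1) scale. At day 7 it measured 0, 0.0687, 8.75, 9.24 and 3.87 CPM in the delayed libraries and 31.6, 3.33, 0 and 0 CPM in the immediate libraries. At day 14 it measured 487, 82.2, 373 and 135 CPM after delayed repair and 178, 23.8, 230.0 and 29.2 CPM after immediate repair. At day 21 it measured 391, 58.6 and 143 CPM after delayed repair and 106, 295, 38.7, 70.5 and 31.4 CPM after immediate repair, against 1.83, 2.62, 3.68, 1.67 and 2.04 CPM in control nerve. Every later library lay above every control library, but immediate day 7 replicate 1, at 31.6 CPM, overlapped the later range, while 4 day 7 libraries were at or near 0. Its day 7 means of 1.80 (delayed) and 1.78 (immediate) against 1.72 in control nerve thus averaged libraries on both sides of control.

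The member of rank 2, ENSRNOG00000022337, was a low gene that later stood well above control. It measured 0, 0, 0.639, 1.41 and 1.62 CPM at day 7 of delayed repair and 0.996, 0, 0 and 0 CPM at day 7 of immediate repair. At day 14 it stood at 18.8, 27.3, 20.1 and 33.3 CPM after delayed repair and 12.4, 10.7, 24.7 and 26.1 CPM after immediate repair. At day 21 it stood at 18.7, 15.9 and 14.1 CPM after delayed repair and 7.53, 29.98, 18.96, 3.02 and 41.2 CPM after immediate repair, against 0.746, 0.791, 0.221, 0.334 and 0.802 CPM in control nerve. No day 7 or control library reached any later library, and the lowest later value, 3.02 CPM, was in immediate day 21 replicate 4.

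At rank 9 the later libraries were close to each other. In these libraries the gene measured 22.3, 14.8, 27.2 and 20.1 CPM (delayed, day 14), 22.3, 15.9, 24.2 and 28.6 CPM (immediate, day 14), 22.4, 20.2 and 14.6 CPM (delayed, day 21) and 25.3, 26.0, 23.1, 20.9 and 24.4 CPM (immediate, day 21). The day 7 libraries measured 1.89, 1.72, 6.00, 8.02 and 4.04 CPM after delayed repair and 4.55, 2.36, 1.61 and 1.00 CPM after immediate repair, against 4.27, 2.19, 2.72, 2.87 and 3.28 CPM in control nerve. Day 7 and control libraries overlapped, and the highest of them, 8.02 CPM, lay below the lowest later one, 14.6 CPM.

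Other members among the highest ranks were plainly expressed in control nerve. Rank 3 measured 1.15, 6.46, 28.3, 65.1 and 28.3 CPM at day 7 of delayed repair and 26.96, 10.5, 3.9987 and 8.36 CPM at day 7 of immediate repair, against 13.3, 13.5, 9.56, 15.96 and 23.5 CPM in control nerve. Day 14 libraries held 196, 217, 137 and 128 CPM after delayed and 209, 223, 178 and 271 CPM after immediate repair, and day 21 libraries 189, 132 and 145 CPM after delayed and 151, 198, 77.05, 295 and 111 CPM after immediate repair. All later libraries, from 77.05 CPM up, lay above all day 7 and control libraries, and the day 7 libraries ran from 1.15 to 65.1 CPM. At rank 6 the libraries measured 0.821, 3.09, 35.6, 20.1 and 51.9 CPM at day 7 of delayed repair and 45.1, 14.3, 2.52 and 0 CPM at day 7 of immediate repair, against 9.22, 12.96, 5.29, 9.88 and 7.8 CPM in control nerve. After delayed repair the later values were 128, 101, 70.9 and 105 CPM at day 14 and 75.9, 74.8 and 40.1 CPM at day 21, and after immediate repair they were 185, 47.1, 63.03 and 170.1 CPM at day 14 and 31.6, 124, 62.4, 63.8 and 116 CPM at day 21. Delayed day 7 replicates 3 and 5 and immediate day 7 replicate 1 reached the later range, whose lowest library was immediate day 21 replicate 1, and immediate day 7 replicate 4 had no counts. Rank 12 measured 1.64, 7.01, 22.7, 10.1 and 16.9 CPM at day 7 of delayed repair and 33.1, 7.54, 6.06 and 0.753 CPM at day 7 of immediate repair, against 7.05, 10.3, 8.9, 9.48 and 8.89 CPM in control nerve. After delayed repair the later values were 105, 48.4, 82.5 and 68.3 CPM at day 14 and 59.9, 32.1 and 50.5 CPM at day 21, and after immediate repair they were 109, 30.1, 68.8 and 44.96 CPM at day 14 and 58.5, 71.97, 28.2, 44.5 and 28.8 CPM at day 21. Immediate day 7 replicate 1, at 33.1 CPM, overlapped the later range, and immediate day 7 replicate 4 was again the lowest library.

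Several of the next members lay near a few CPM in control nerve. Rank 7 measured 0.575, 2.06, 10.7, 10.8 and 8.42 CPM at day 7 of delayed repair and 13.6, 7.02, 1.68 and 0 CPM at day 7 of immediate repair, against 3.39, 2.56, 3.68, 5.21 and 3.5 CPM in control nerve. Day 14 libraries held 34.9, 24.9, 24.95 and 27.2 CPM after delayed and 36.1, 22.2, 21.5 and 25.03 CPM after immediate repair, and day 21 libraries 30.3, 19.4 and 24.6 CPM after delayed and 20.1, 27.7, 21.8, 41.5 and 23.6 CPM after immediate repair. No day 7 library reached the later range, while 5 lay above the control range and 4 below it. At rank 10 the libraries measured 1.23, 1.24, 8.17, 5.13 and 7.27 CPM at day 7 of delayed repair and 6.79, 3.77, 2.06 and 0.585 CPM at day 7 of immediate repair, against 3.93, 3.71, 2.87, 3.07 and 2.84 CPM in control nerve. After delayed repair the later values were 18.2, 15.9959, 22.6 and 19.5 CPM at day 14 and 29.6, 21.2 and 14.4 CPM at day 21, and after immediate repair they were 19.6, 13.2, 27.6 and 26.9 CPM at day 14 and 20.9, 36.4, 15.04, 15.9 and 28.2 CPM at day 21. Day 7 again lay on both sides of control, with 4 libraries above its range and 4 below. Rank 14 measured 3.45, 6.25, 13.2, 13.3 and 9.4 CPM at day 7 of delayed repair and 23.2, 3.84, 9.09 and 3.09 CPM at day 7 of immediate repair, against 5.22, 7.3, 4.7, 6.41 and 4.81 CPM in control nerve. Day 14 libraries held 31.2, 23.4, 34.4 and 26.4 CPM after delayed and 43.6, 16.4, 29.1 and 29.7 CPM after immediate repair, and day 21 libraries 25.4, 39.98 and 20.8 CPM after delayed and 26.9, 34.0043, 30.7, 20.9 and 39.5 CPM after immediate repair. Here immediate day 7 replicate 1, at 23.2 CPM, overlapped the later libraries, of which immediate day 14 replicate 2 was lowest. Rank 13 measured 0.164, 1.03, 3.07, 4.68 and 3.4 CPM at day 7 of delayed repair and 10.5, 3.03, 0.838 and 0 CPM at day 7 of immediate repair, against 0.814, 2.19, 1.54, 1.27 and 1.68 CPM in control nerve. After delayed repair the later values were 17.5, 12.7, 11.03 and 13.1 CPM at day 14 and 12.1, 10.6 and 7.55 CPM at day 21, and after immediate repair they were 15.9, 12.99, 12.5 and 15.3 CPM at day 14 and 5.71, 9.58, 9.84, 18.3 and 9.05 CPM at day 21. Immediate day 7 replicate 1 was likewise inside the later range, and immediate day 7 replicate 4 had no counts.

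Ranks 4, 5 and 11, also among the 15 highest members, were low in control nerve. Rank 4 measured 0.329, 0.206, 3.32, 7.7 and 1.1 CPM at day 7 of delayed repair and 5.29, 0.0739, 0.129 and 0.92 CPM at day 7 of immediate repair, against 1.02, 0.73, 0.956, 1.8 and 1.89 CPM in control nerve. Day 14 libraries held 26.9, 31.7, 39.7 and 32.6 CPM after delayed and 19.5, 42.2, 32.6 and 39.5 CPM after immediate repair, and day 21 libraries 22.4, 20.6 and 12.2 CPM after delayed and 25.7, 34.2, 16.96, 16.7 and 21.8 CPM after immediate repair. All later libraries lay above all others, and the 2 highest day 7 libraries were delayed replicate 4 and immediate replicate 1. At rank 5 the libraries measured 0, 0.0687, 1.92, 1.09 and 1.44 CPM at day 7 of delayed repair and 2.62, 0.148, 1.61 and 0.0836 CPM at day 7 of immediate repair, against 0.407, 0.669, 0.368, 0.134 and 1.6 CPM in control nerve. After delayed repair the later values were 30.6, 12.4, 9.41 and 7.18 CPM at day 14 and 16.3, 26.8 and 6.28 CPM at day 21, and after immediate repair they were 17.6, 8.99, 13.7 and 3.45 CPM at day 14 and 2.65, 17.5, 12.2, 11.1 and 12.3 CPM at day 21. Immediate day 21 replicate 1, the lowest later library, lay just above immediate day 7 replicate 1. Rank 11 measured 0, 0.0687, 0.894, 0.706 and 0.288 CPM at day 7 of delayed repair and 0.311, 0.222, 0 and 0 CPM at day 7 of immediate repair, against 0.136, 0.669, 0.221, 1.2 and 0.0729 CPM in control nerve. Day 14 libraries held 7.76, 5.31, 7.8 and 3.26 CPM after delayed and 7.05, 2.8, 7.89 and 8.85 CPM after immediate repair, and day 21 libraries 4.55, 5.06 and 7.08 CPM after delayed and 6.54, 7.33, 3.92, 7.5 and 7.88 CPM after immediate repair. Here the later libraries were apart from all others, and no day 7 library exceeded the control range.

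Abundant members had the same course in the means and a wide spread at day 7. Rank 15 measured 45.7, 416, 1967, 683 and 873 CPM at day 7 of delayed repair and 2385, 964, 442 and 3.01 CPM at day 7 of immediate repair, against 313, 372, 266, 329 and 449 CPM in control nerve. At day 14 it measured 2991, 3118, 2455 and 2283 CPM after delayed and 3680.4, 1367, 2049 and 2739.6 CPM after immediate repair. At day 21 it measured 2334, 2079.7 and 1551 CPM after delayed and 1163, 2224, 1142, 1739 and 1250.2 CPM after immediate repair. The day 7 libraries thus ran from far below control to the later level although their means on the log2 scale lay near control. Rank 17, chosen for description after its values were seen, did likewise, with 8.46, 39.2, 189, 153 and 104 CPM (delayed) and 264, 119, 43.8 and 2.26 CPM (immediate) at day 7, against 53.8 to 79.9 CPM in control nerve. At days 14 and 21 its libraries lay between 233 and 424 CPM, and immediate day 7 replicate 1, at 264 CPM, overlapped that range.

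**Figure D1:**
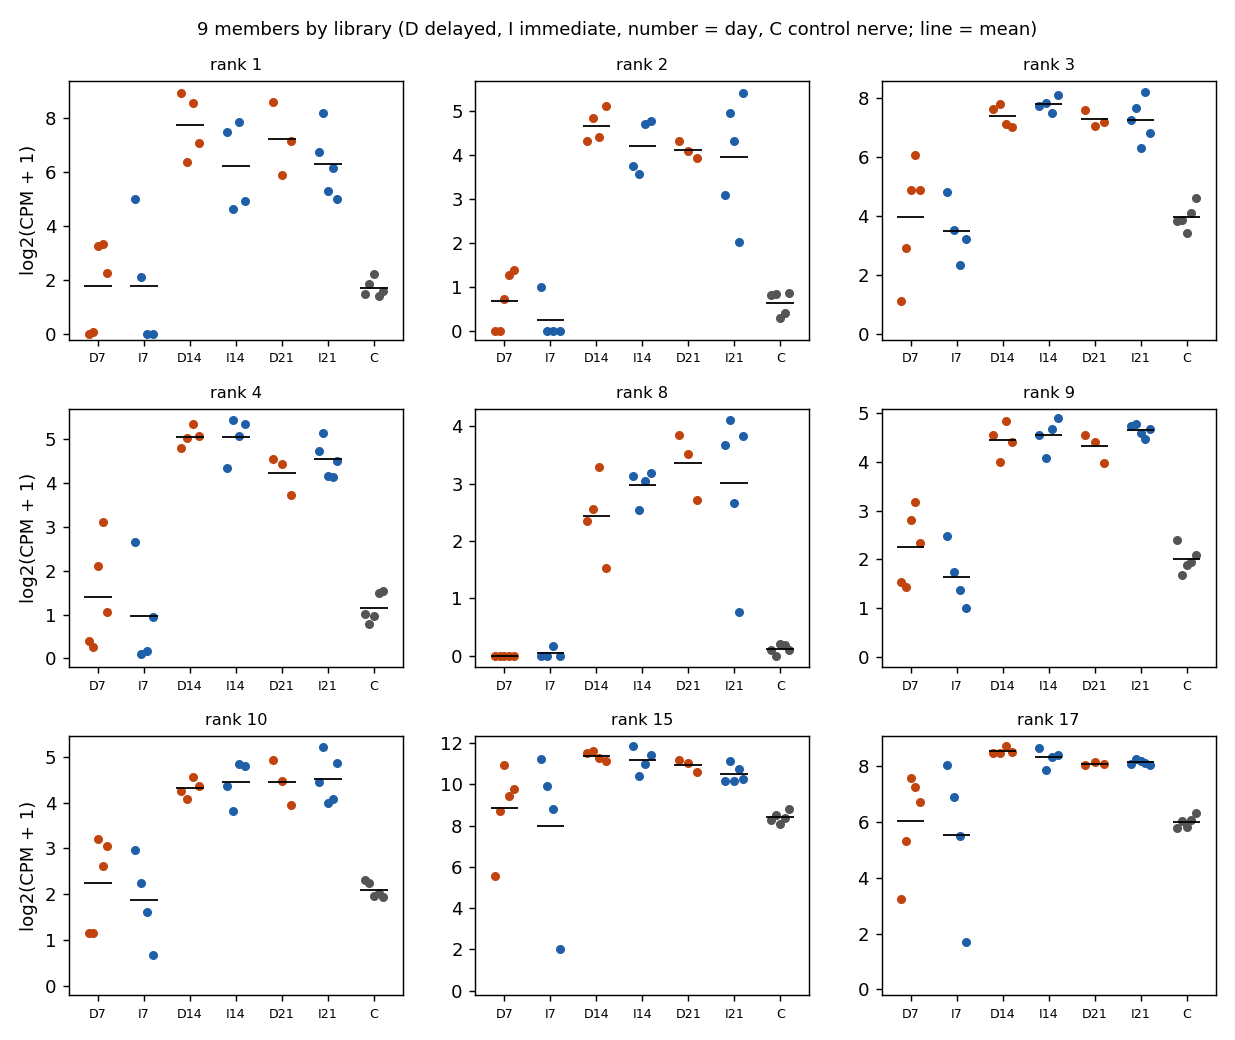
Levels of 9 members, by rank, as log2(CPM + 1) in each library; each point is 1 library and the line is the group mean. Later libraries stand high in both repairs, while day 7 libraries of most of these members lie on both sides of the control points; the member of rank 8 is at or near 0 in all day 7 and control libraries.

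At the low end, some members were all but undetected before day 14. Rank 8 had no counts in any delayed day 7 library and in 3 of the 4 immediate ones, where replicate 3 held 0.129 CPM. It measured 4.08, 4.91, 8.77 and 1.89 CPM (delayed) and 7.74, 4.80, 7.31 and 8.13 CPM (immediate) at day 14. At day 21 it measured 13.5, 10.4 and 5.54 CPM after delayed repair and 11.8, 16.2, 5.36, 0.693 and 13.2 CPM after immediate repair, against 0.0678, 0, 0.147, 0.134 and 0.0729 CPM in control nerve. All later libraries were above all earlier and control libraries, with immediate day 21 replicate 4 again lowest. In 5 members, at ranks 36, 89, 96, 107 and 108, no control library held a count. A total of 0 in the 73474659 control counts allows up to 3 counts, or 0.0408 CPM over the group. Against that floor the member of rank 36 was at least 79.0-fold (delayed) and 111-fold (immediate) higher at day 14 and at least 71.5-fold (delayed) and 66.5-fold (immediate) higher at day 21. Its later libraries summed to 190 and 129 counts (delayed, days 14 and 21) and 260 and 193 counts (immediate), and its day 7 libraries to 2 (delayed) and 0 (immediate). Over the 5 members these bounds ran from 28.3-fold to 209-fold, the lowest on 51 counts (rank 107, delayed, day 21). They cover counting error in the control total only, not that of the later counts or the spread between libraries.

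Across all members the later differences from control were moderate. The median difference was 1.68 (delayed) and 1.62 (immediate) at day 14 and 1.45 in both repairs at day 21, against 0.110, 0.111, 0.0633 and 0.161 over the 16015 genes with enough counts to be tested. A difference of at least 2 was held by 52 (delayed) and 45 (immediate) members at day 14 and by 33 (delayed) and 29 (immediate) at day 21. Over the 16015 tested genes these counts were 1095, 1078, 983 and 898 in the same order. The rule used these differences, so nothing is read from the counts. Mean level in control nerve was under 1 CPM in 65 members and at least 10 CPM in 37. With TMM-scaled library sizes, which shift the all-gene medians to between -0.0013 and 0.0031 in the later groups, the members' medians were 1.57 (delayed) and 1.53 (immediate) at day 14 and 1.43 (delayed) and 1.30 (immediate) at day 21. All 150 members passed the filter on low counts that the tests use. The rule's floor on the 4 later groups helps a gene pass that filter.

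**Figure D2:**
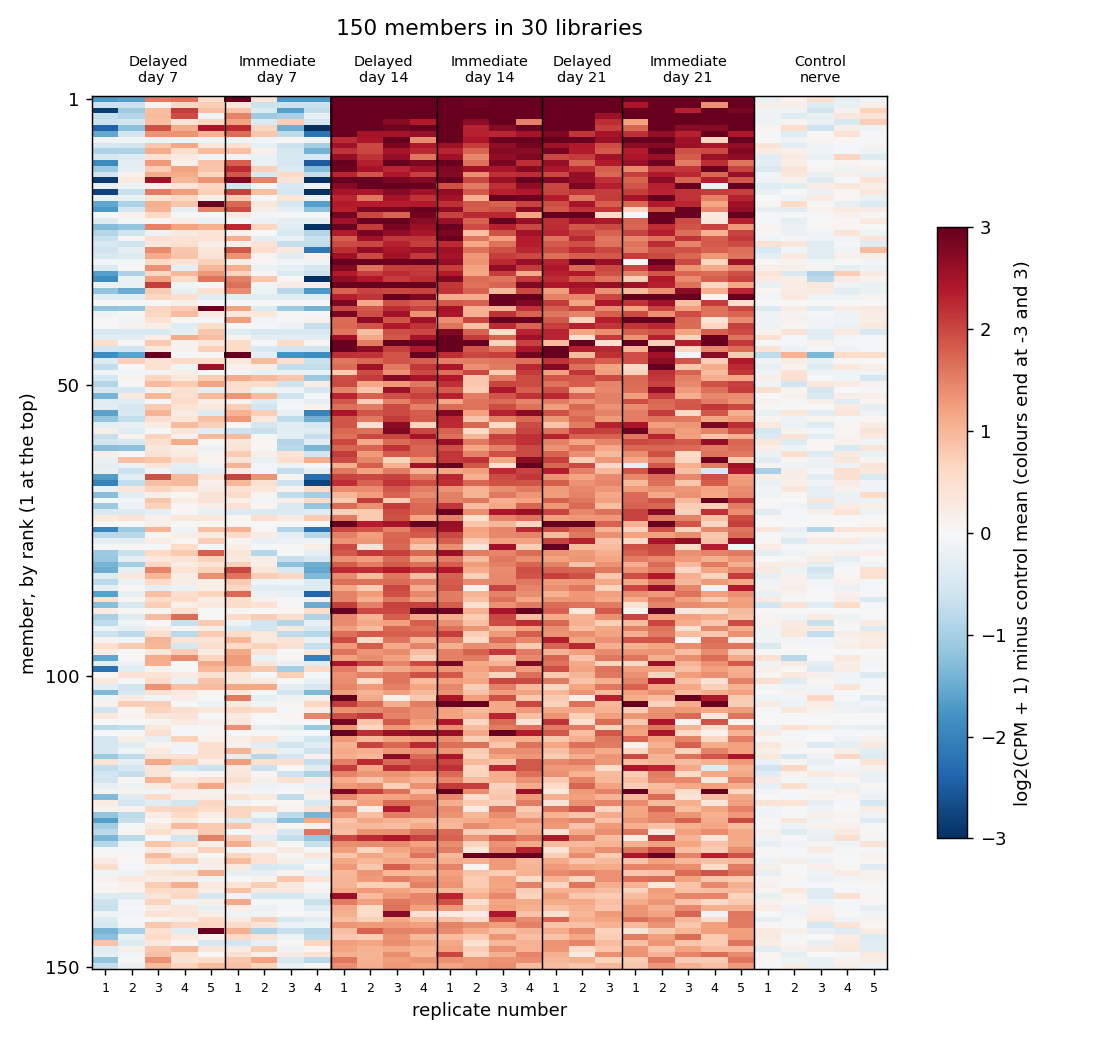
Each row is 1 of the 150 members, by rank, and each column 1 library; colour is log2(CPM + 1) minus the mean of the 5 control libraries. In each of the 16 later libraries at least 134 members lie more than 0.5 above control, while day 7 columns differ from each other, with medians below control in delayed replicates 1 and 2 and immediate replicates 3 and 4.

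The members' label of no change at day 7 held for group means and not for single libraries. Every one of the 9 day 7 libraries lay within 0.5 of the control mean in 11 members only. In 80 members (53.3%) some day 7 library lay more than 0.5 above control and another more than 0.5 below. Another 47 members had libraries above and none below, and 12 had libraries below and none above. A member whose control mean is under 0.5 on the log2(CPM + 1) scale cannot lie more than 0.5 below it. The lower quartile of the members' control means was 0.447, so these counts do not weigh the 2 directions alike. Among the 5611 tested genes whose day 7 means were likewise within 0.5 of control in both repairs, 12.2% had libraries on both sides and 29.0% had every library within the limit. The 11 steady members were all low, with control means of at most 0.46 CPM, where adding 1 CPM compresses differences. "Unchanged" thus describes the day 7 means of the members, not their day 7 libraries.

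Day 7 libraries fell into an order that most members shared. The median difference of the members from control was -0.494, -0.196, 0.567, 0.361 and 0.373 in delayed replicates 1 to 5 and 0.552, 0.0027, -0.188 and -0.365 in immediate replicates 1 to 4. Delayed replicate 1 had 74 members more than 0.5 below control and 4 above, whereas delayed replicate 3 had none below and 79 above. Immediate replicate 4 had 65 below and 11 above, whereas immediate replicate 1 had 3 below and 80 above. Libraries at both ends thus occurred in each repair, and the repairs overlapped. Over all tested genes the median deviation from the group mean was -0.141, 0, 0.079, 0.0268 and -0.0179 in delayed replicates 1 to 5. It was 0.0492, 0.0247, -0.0249 and -0.0846 in immediate replicates 1 to 4. In each repair the lowest and highest library were thus the same as for the members. Delayed replicate 1 and immediate replicate 4 also had the lowest total count of their groups, 12176007 and 11958242. What part depth plays was not tested. Members took 0.112% to 0.488% of the counts in the delayed and 0.160% to 0.582% in the immediate day 7 libraries, against 0.193% to 0.226% in control nerve.

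A like split of the day 7 libraries appeared in other genes raised later. The 159 genes that were below control at day 7 had medians of -3.03 and -2.16 in delayed replicates 1 and 2 and -2.19 and -3.17 in immediate replicates 3 and 4. In delayed replicates 3 to 5 they stood at -0.368, -0.489 and -0.346, and in immediate replicates 1 and 2 at -0.188 and -1.43. The 2058 genes already raised at day 7 lay between 1.81 and 2.27 in all 9 day 7 libraries, with no such split. What sets these libraries apart was not tested, and the labels give no batch that separates them.

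Deviations from the group mean were shared most at day 7. For each pair of members the deviations from the group mean were correlated over the libraries of a group. Over members whose counts varied, the median r over pairs was 0.64 over 5 delayed and 0.62 over 4 immediate day 7 libraries, and the members of a pair share each library and its depth. At day 14 this r was 0.14 (delayed) and 0.47 (immediate) and at day 21 it was 0.10 and 0.17, against 0.04 in control nerve. The r was not computed for other genes, so whether it is particular to the members is not known. In immediate day 14 121 of 150 members lay above the group mean in replicate 1 and 20 in replicate 2. The median SD over libraries was 0.55 (delayed) and 0.54 (immediate) at day 7, 0.31 and 0.53 at day 14 and 0.32 and 0.46 at day 21, against 0.24 in control nerve. Over all tested genes these SDs were 0.34, 0.30, 0.22, 0.26, 0.23, 0.29 and 0.19 in the same order.

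Libraries that took no part in the choice also stood above control at days 14 and 21. The rule was applied again without each of the 30 libraries in turn, and the 150 genes it then took were measured in the library left out. For a repaired library the reference was the same 5 control libraries that the rule used. The genes still had to meet the rule in the means of the other libraries. The values are thus a description and no independent test. The median difference from control in the library left out was 1.52 to 1.83 (4 delayed, day 14), 1.15 to 1.92 (4 immediate, day 14), 1.33 to 1.59 (3 delayed, day 21) and 1.23 to 1.70 (5 immediate, day 21). Between 117 and 148 of the 150 genes were at least 0.75 above control in each of these 16 libraries. The share over all tested genes was not computed for single libraries. Day 7 libraries that were left out stood at -0.345 to 0.627 (delayed) and -0.450 to 0.498 (immediate), and control libraries at -0.0464 to 0.0762. Only 63 to 107 of the 150 genes lay within 0.5 of control in a left-out day 7 library, against 129 to 136 in a left-out control library.

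**Figure D3:**
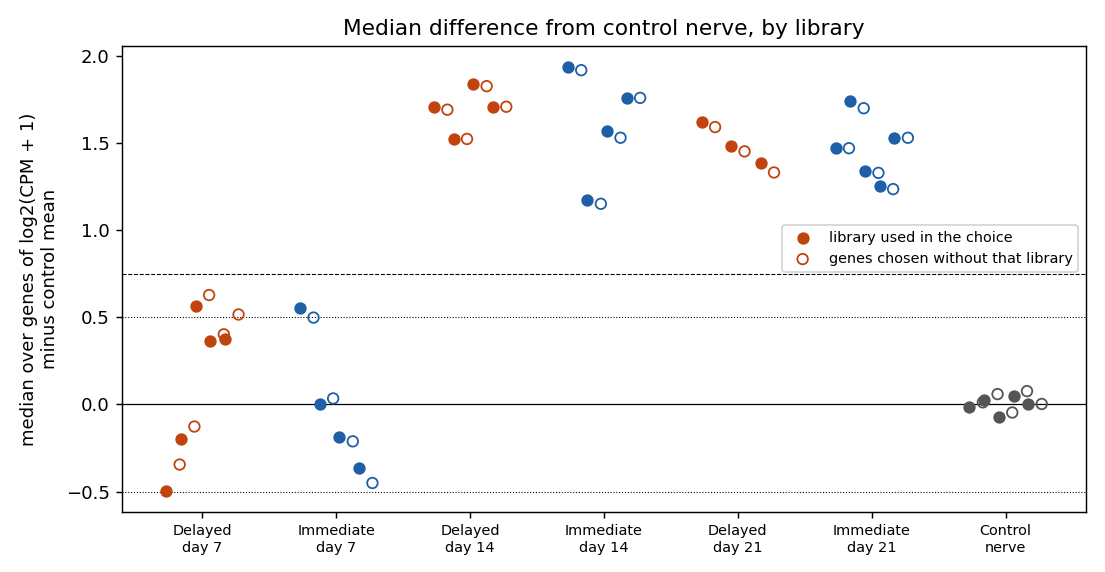
Median over 150 genes of log2(CPM + 1) minus the control mean, by library; filled points use the members, open points use the 150 genes chosen without that library. Dotted lines mark -0.5 and 0.5 and the dashed line 0.75; the 16 later libraries all lie above 1, and the filled points of day 7 run from -0.494 to 0.567 (delayed) and from -0.365 to 0.552 (immediate).

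Every library of the group lay above every control library in 148 (delayed) and 147 (immediate) members at day 14 and in 144 (delayed) and 132 (immediate) at day 21. Over all tested genes the share was 31.2%, 28.9%, 29.3% and 26.9% in the same order. The rule used these contrasts, so nothing is read from the counts. At day 7 it was so in 1 member each in delayed and immediate repair, where the share over all tested genes was 21.4% and 24.3%. In 127 members all 16 later libraries lay above all 5 control libraries, and in 44 they lay above all day 7 libraries as well. The share over all tested genes was not computed for these counts. The rule set later and day 7 levels against control, so nothing is read from these counts either.

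The repairs were then compared with each other. The rule demanded a raised level in both repairs at both later days and ranked genes by the smallest of the 4, so a gene high in 1 repair only could not be a member. The differences between repairs and between days 14 and 21 were thus limited by the choice, and nothing is read from the lack of calls among the members. No member was called between delayed and immediate repair at day 14 (edgeR quasi-likelihood test with Benjamini-Hochberg adjustment over 16015 genes, threshold 0.05, 4 against 4 libraries), where 0% of all tested genes were called. Without adjustment 2 members had a p under 0.05, and the share over all tested genes was 1.52%. The median log2 fold change of delayed over immediate repair was 0.09 over the members and -0.01 over all tested genes. The sign of the members' median rested on 1 library: it was -0.03 without immediate day 14 replicate 2 and 0.20 without immediate day 14 replicate 1. At day 21 (3 against 5 libraries) again no member was called, where 0.05% of all tested genes were, or 8 genes. That number was 0 without delayed replicate 1 or immediate replicate 1, 3 or 5, was 1 without delayed replicate 2 and 3 without immediate replicate 2. Without adjustment 4 members had a p under 0.05, and the share over all tested genes was 5.69%. The median log2 fold change was 0.05 over the members and -0.02 over all tested genes, and over the members it was -0.01 without delayed day 21 replicate 1 and 0.14 without immediate day 21 replicate 2. The 95% interval excluded changes of 2-fold or more, up or down, in 41 members at day 14 and 36 at day 21. In the other members it did not. Such changes were excluded in 27.3% and 24.0% of members, against 59.6% and 54.8% of all tested genes. The spread behind these intervals was estimated over all 7 groups, day 7 included, and not over the compared groups only. Fitted on the compared groups alone, 10 members at day 14 and 7 at day 21 had an unadjusted edgeR p under 0.05, and 0 were called. The share over all tested genes was not computed for those fits. DESeq2 called 1 member at each day, both lower after delayed repair, where it called 0.05% and 0.375% of all tested genes.

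At day 14 the member that DESeq2 called was ENSRNOG00000034164, of rank 131. It measured 0.841, 1.35, 1.10 and 2.22 CPM after delayed and 1.04, 48.8, 10.5 and 13.7 CPM after immediate repair. At day 21 it measured 0.745, 1.77 and 0.801 CPM after delayed and 4.63, 9.76, 1.92, 4.22 and 2.92 CPM after immediate repair, where the groups did not overlap. Immediate replicate 1 lay within the delayed range at day 14, and replicate 2 was far above the others. Its log2 fold change at day 14 was -3.73 (SE 0.89, edgeR adjusted p = 1), and DESeq2 gave an adjusted p of 0.0262. Without immediate day 14 replicate 2 the fold change was -2.60 in edgeR and the adjusted p was 1 in both edgeR and DESeq2. The adjusted p in DESeq2 at day 21 was 0.607, at a log2 fold change of -1.98 in edgeR (SE 0.92, adjusted p = 0.854).

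The member that DESeq2 called at day 21 was ENSRNOG00000022009, of rank 120. It measured 0.298, 1.58 and 2.00 CPM after delayed and 37.5, 1.18, 0.56, 249 and 0.657 CPM after immediate repair at day 21. Immediate replicates 4 and 1 stood far above the rest, and the other 3 lay in the delayed range. Its log2 fold change was -5.41 (SE 1.64, edgeR adjusted p = 0.442; DESeq2 adjusted p = 0.0212). Without immediate day 21 replicate 4 it was -2.85 (SE 1.29, edgeR adjusted p = 0.643; DESeq2 adjusted p = 0.447).

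Members of rank 43 and 105 were high in the same 2 immediate day 21 libraries, replicates 4 and 1. Both were chosen for description after their values were seen. At day 21 rank 43 measured 0.969, 10.2 and 0.401 CPM after delayed and 22.3, 0.71, 4.24, 1984 and 3.50 CPM after immediate repair. Rank 105 measured 0.82, 2.53 and 1.27 CPM after delayed and 28.5, 0.828, 1.44, 108 and 0.875 CPM after immediate repair. At day 14 immediate replicate 1 was the highest library at ranks 43 and 120, with 117 and 19.6 CPM. At rank 105 it held 11.5 CPM, next to 12.3 CPM in immediate replicate 2. These 3 were the only members for which 1 library, immediate day 21 replicate 4 in each case, held at least 50% of the CPM summed over the 16 later libraries, with 89.5%, 58.9% and 74.7% at ranks 43, 105 and 120. Over all tested genes 0.955% had such a library. Without that library the log2 fold changes of delayed over immediate repair were -0.91 at rank 43 and -2.28 at rank 105 (edgeR adjusted p = 0.957 and 0.711), against -6.67 and -4.12 with it (edgeR adjusted p = 0.515 for each). DESeq2 gave rank 43 no adjusted p and rank 105 an adjusted p of 0.0973. What sets that library apart was not tested.

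Delayed and immediate libraries were fully apart in few members. At day 14 every delayed library was above every immediate one in 7 members (4.67%) and below in 0. The share over all tested genes was 1.1% and 0.731%. At day 21 it was above in 5 members (3.33%) and below in 3 (2.0%), where the share over all tested genes was 1.35% and 4.9%. The difference between the repairs at day 7 was bounded by the rule, which held both means within 0.5 of control. Its median was 0.09 on the log2(CPM + 1) scale, delayed minus immediate, and its range -0.61 to 0.90.

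Day 21 was then set against day 14, with the same limit from the choice of members. In delayed repair (3 against 4 libraries) no member was called (edgeR, 0% of all tested genes) and 0 had an unadjusted p under 0.05, where the share over all tested genes was 3.87%. That 0 depended on the fit of all 7 groups. Fitted on the 2 compared groups alone, 29 members had an unadjusted edgeR p under 0.05 and 0 were called. The share over all tested genes was not computed for that smaller fit. In immediate repair (5 against 4 libraries) no member was called, where 0.256% of all tested genes were, or 41 genes. That share was not stable: 185 genes were called without immediate day 21 replicate 4, 15 without immediate day 14 replicate 4, 12 without immediate day 21 replicate 5, 21 without immediate day 21 replicate 1 or 3, and 0 without immediate day 14 replicate 1, 2 or 3. Without adjustment 4 members had a p under 0.05, 3 higher and 1 lower, and the share over all tested genes was 7.54%. DESeq2 called 0 members in either repair, where it called 0.25% (delayed) and 0.955% (immediate) of all tested genes. The log2 fold change of day 21 over day 14 was above 0 in 39 members after delayed and 40 after immediate repair, or 26.0% and 26.7%, against 49.991% and 51.5% of all tested genes. Its median was -0.21 (delayed) and -0.20 (immediate) over the members, against 0 and 0.01 over all tested genes. In immediate repair the members' median was -0.05 without day 14 replicate 1 and -0.33 without day 14 replicate 2. The median half-width of a single member's 95% interval was 1.40 (delayed) and 1.22 (immediate).

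Other genes raised later also lay lower at day 21. Both day 14 means lay above both day 21 means in 60 members (40.0%) and below them in 10 (6.67%). Among the 2585 genes raised in all 4 later groups the shares were 43.2% and 4.84%, and over all tested genes they were 21.2% and 18.6%. Every delayed day 21 library lay below every delayed day 14 library in 26 members and above in 1, where the share over all tested genes was 5.31% and 2.12%. In immediate repair this was so in 1 member and in 0, where the share over all tested genes was 0.393% and 1.38%.

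An interaction term compared the step from day 14 to day 21 in delayed repair with that in immediate repair. No member was called by edgeR, where 0% of all tested genes were. DESeq2 called 0 members and 0.0312% of all tested genes. Without adjustment 2 members, at ranks 43 and 120, had an edgeR p under 0.05, where the share over all tested genes was 2.4%. That number was 1 without immediate day 21 replicate 4, the library that held most of the later CPM at both ranks. It was 0 without immediate day 14 replicate 2 and 4 without immediate day 14 replicate 1. The median of the difference, delayed minus immediate, was -0.05 on the log2 scale, with a median 95% half-width of 1.85 for a single member. It was 0.11 without immediate day 14 replicate 2 and -0.13 without immediate day 14 replicate 1.

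**Figure D4:**
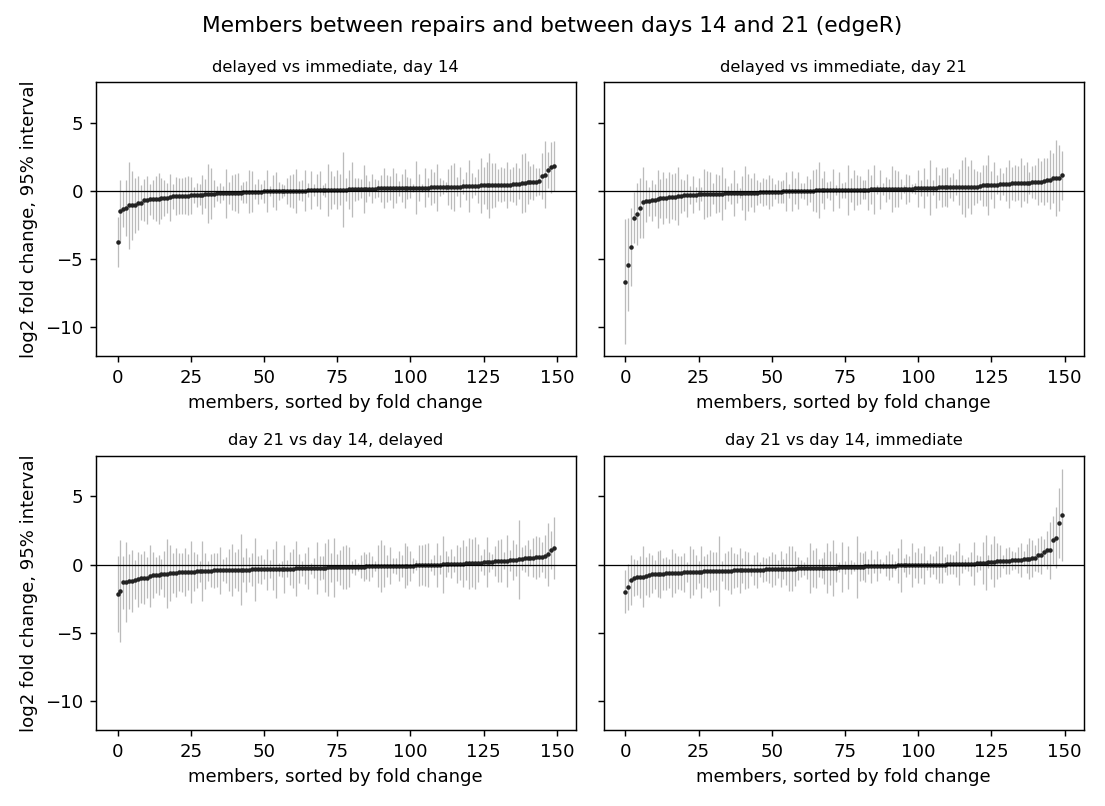
Log2 fold changes of the 150 members, sorted within each panel, with 95% intervals (edgeR), for delayed over immediate repair at days 14 and 21 and for day 21 over day 14 in each repair. No member passed the adjusted threshold; the lowest points of the day 21 panel between repairs are the members of rank 43, 120 and 105.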

How the data were processed

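Gene expression was measured by poly(A) RNA sequencing that does not mark strand, from 400 ng of RNA with an integrity number above 6, per the labels' protocols. Overlapping and antisense genes can therefore share reads. Raw counts per gene were deposited, 1 column per sample. The tools named in the submitters' processing notes, in no stated role, are featureCounts 1.5.0-p3, HISAT2 2.0.5 and DESeq2 1.38.3. The sources used here do not give the genome build or how reads of near-identical genes were counted.

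Members and lists were chosen with earlier results of these data known. Lists by symbol, and sequences, were not used because no ID matched a symbol. The rule for named genes took the 20 highest ranks, the members called in a test, and the 3 ranks nearest the limit. At most 4 IDs are printed, and values in every library are given for the 15 highest ranks. Ranks 17, 36, 43, 105, 120 and 131 were added after their values were seen.

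Counts were tested with edgeR 4.0.16 in R 4.3.3 (filterByExpr, TMM, robust quasi-likelihood fit of 7 groups over 30 libraries). The fit was also tried on simulated counts, drawn independently for each gene with the same spread in all groups. Such counts lack deviations that genes share within a library, so nothing is read from that trial here. DESeq2 1.42.0 was an alternative. Other scalings, filters, pseudocounts and sets of libraries, and the replicate number as a block, were also tried. Replicates of a group differed by more than sampling noise in all 51 pairs, with a chi-square of at least 15.7 times its degrees of freedom. The 95% intervals of fold changes come from the edgeR fit and include the spread between libraries, estimated over all 7 groups. Floors for genes at 0 cover counting error in the control counts only.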

Additional observations from a re-analysis of the deposited data

Results flagged for a closer look

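In 4 of 101 groups of libraries examined (library medians, shares of counts and the 15 highest members), the end library lay apart from the rest by Dixon's 95% criterion, where chance gives about 1 in 20. On the log2(CPM + 1) scale, the member of rank 2 stood at 0.997 in immediate day 7 replicate 1, against 0 in the other 3. The member of rank 8 stood at 0.175 in immediate day 7 replicate 3, against 0 in the other 3. Where all other libraries stand at 0, any count passes this criterion, and at rank 8 it was 2 counts. The member of rank 5 stood at 1.867 in immediate day 21 replicate 1, against 3.595 to 4.21 in the other 4. The member of rank 11 stood at 2.299 in immediate day 21 replicate 3, against 2.914 to 3.15 in the other 4.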

How the results depend on the processing

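In each of the 5 comparisons no member was called by edgeR as reported, without the filter on low counts, with relative log expression scaling, with the compared groups alone, with the replicate number as a block (0 members called), with members chosen on TMM-scaled CPM, with delayed day 7 replicate 5 and immediate day 21 replicate 4 both left out, or without any 1 of the libraries compared (0 to 0 members). The deviations of same-numbered delayed and immediate libraries at day 14 had an r of 0.05 to 0.45, over 0.1 in 3 of 4 pairs. In the other comparisons r ran from -0.34 to 0.20. The labels do not say what the numbers mark, so whether they pair the samples is not known. With the block, the genes called among all tested were 0 in each comparison, against 41 between days 21 and 14 of immediate repair and 8 between repairs at day 21 without it. With the compared groups alone they were 0 and 1, and without the filter 26 and 0. With both libraries left out these numbers were 294 and 11, and 43 between days 21 and 14 of delayed repair, against 0. In that last comparison 22 genes were called without delayed day 21 replicate 3. DESeq2 called 1 member at day 14 and 1 at day 21 between repairs, and 0 without immediate day 14 replicate 2 or immediate day 21 replicate 4 (chosen after seeing the data).

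The choice of members depended more on the settings. Of the 150, TMM scaling kept 142, a pseudocount of 0.5 kept 111, a pseudocount of 2 kept 106, group medians kept 102, and leaving out both libraries named above kept 127. Taking 100 or 200 genes kept 100 and 150. Leaving out single libraries kept 114 to 150, and the lowest number came from leaving out replicate 1 of either day 7 group. With a pseudocount of 0.5 the mean of the library medians in control nerve was 0.933 in place of 1.27. Between repairs the median 95% half-width over the members was 1.29 at day 14 and 1.32 at day 21, against 0.61 and 0.63 over all tested genes; the reason was not tested.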
